A study of Homo sapiens with 9 samples.

Results

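The 33 genes described here encode enzymes of nucleotide synthesis: 10 that supply deoxynucleotides, 8 of pyrimidine synthesis, 12 of purine synthesis, and the nucleoside diphosphate kinase NME1, the guanylate kinase GUK1 and the surface 5'-nucleotidase NT5E. They were chosen by gene name from the known pathways, with earlier results of these data known. Each of the 33 names was found once among the 58735 genes of the deposited count table. The RNA came from HEYA8, an established human line of ovarian cancer; its labels give high-grade serous cancer as the source and WT as the genotype. Cells received sunitinib (a drug that blocks several receptor tyrosine kinases), compound 32 or the solvent DMSO, each for 24 h and with 3 samples per group. All 9 samples shared the medium (DMEM with fetal bovine serum and antibiotics), the confluency at treatment and the batch, given as a single day. No dose is stated for either compound in the sources used here, nor any relation between them, so each comparison is one between these samples and not between matched doses. The study text speaks of biological replicates for sunitinib and for DMSO and is silent on the compound 32 samples. The p-values measure the spread between samples, which may be technical.

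The deposited libraries held 15498101 to 18006171 counts each. The line carried PAX8 at 117 to 132 CPM (counts relative to the TMM-scaled total of the library, group means) and KRT8 at 634 to 864 CPM, while 3 of 12 ovarian and epithelial markers (MUC16, CDH1 and FOLR1) had under 10 counts over all libraries and KRT19, MSLN and EPCAM lay at 0.521 to 2.13 CPM (group means). Of the 9 tested, KRT7 was higher under sunitinib than under DMSO (224 and 72.2 CPM, edgeR adjusted p = 5.61e-08) and WT1 lower (5.12 and 12.4 CPM, edgeR adjusted p = 1.9e-05); the other 7 were not called. The list summed to 1297 to 1380 CPM in sunitinib libraries, 1457 to 1572 CPM in compound 32 libraries and 1243 to 1325 CPM in DMSO libraries. In compound 32 against DMSO 3 of its 9 tested genes were higher, beside 22.3% of all genes tested that were called. In compound 32 against sunitinib 4 were higher and 2 lower, beside 49.2% called. None of the 6 immune markers had enough counts to be tested. Summed endothelial markers reached 13.8 to 17.6 CPM in sunitinib libraries, 5.62 to 6.38 CPM in compound 32 libraries and 7.52 to 10.3 CPM in DMSO libraries. Summed fibroblast markers reached 19.8 to 21.9, 12.8 to 15 and 11.1 to 12.3 CPM in the sunitinib, compound 32 and DMSO libraries. DCN had under 10 counts in all. Of the endothelial and fibroblast markers 3 each were tested, and 1 of each was higher under sunitinib than under DMSO (40.2% of all genes tested were called). In compound 32 against DMSO 1 endothelial marker was lower and 1 fibroblast marker higher. Against sunitinib 2 endothelial markers were lower, and 1 fibroblast marker was higher and 1 lower. How far these lists bear on the results was not tested. Sunitinib replicate 3 stood apart. Ribosomal protein genes took 7.57% and mitochondrial genes 5.36% of its counts, against 4.14% to 4.99% and 3.42% to 3.92% in the other libraries, and its log2 CPM correlated with sunitinib replicates 1 and 2 at 0.9815 and 0.9811, against 0.9932 between those replicates. For several results that rest on it, the value without it is given as well.

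Cells make purine and pyrimidine nucleotides from small precursors or salvage them from bases and nucleosides. Synthesis from precursors and salvage of bases draw on phosphoribosyl pyrophosphate, the ribose donor that the PRPS enzymes make. Ribonucleotide reductase, built from the large subunit RRM1 and the small subunit RRM2 or RRM2B, turns ribonucleotides into deoxyribonucleotides, and TYMS then makes thymidylate with a folate cofactor. RRM2, TYMS and TK1 are well known as genes that proliferating cells express mainly around the time they copy their DNA, and both TYMS and ribonucleotide reductase are targets of drugs used against cancer.

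Promoter sequence is given for RRM2, RRM1 and TYMS, which changed most under sunitinib, for DCK, picked for its E2F match although its change was smaller, and further on for PPAT, which adjoins PAICS. TK1, CTPS1, PRPS1 and GMPS changed more than DCK and are not shown, so the runs do not stand for how often motifs occur. RefSeq starts and sequences (GRCh38.p14) were available for 31 of the 33 members, all but ADSL and IMPDH2. Capitals mark the CCAAT box (CCAAT) or an E2F motif (TTCCCGC or TTTNNCGC, on either strand, overlapping where a longer run fits both), and each run is 120 bases, read along the strand of the gene. The run of RRM2, the gene with the largest response, holds 3 CCAAT boxes (chr2:10122602-10122721, plus strand). It was set to start further upstream than the runs of TYMS and DCK, and so takes in the box at -123. The run of RRM1 holds an E2F match (chr11:4094435-4094554, plus) and was placed to do so. TYMS holds an E2F run that fits both patterns (chr18:657533-657652, plus) and DCK an E2F match (chr4:70993529-70993648, plus). Relative to the start, the runs span -137 to -17 in RRM2, -250 to -130 in RRM1 and -120 to 0 in TYMS and DCK. Outside the runs, RRM1 has a CCAAT box at -28 and DCK has E2F matches at -192 and 21.
RRM2: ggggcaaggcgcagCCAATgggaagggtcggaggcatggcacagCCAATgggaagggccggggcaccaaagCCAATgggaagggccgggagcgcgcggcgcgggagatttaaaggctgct
RRM1: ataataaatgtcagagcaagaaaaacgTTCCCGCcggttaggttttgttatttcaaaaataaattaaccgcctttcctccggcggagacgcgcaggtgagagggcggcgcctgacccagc
TYMS: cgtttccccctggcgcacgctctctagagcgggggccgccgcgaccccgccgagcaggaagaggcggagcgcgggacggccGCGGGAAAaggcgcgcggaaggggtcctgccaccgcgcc
DCK: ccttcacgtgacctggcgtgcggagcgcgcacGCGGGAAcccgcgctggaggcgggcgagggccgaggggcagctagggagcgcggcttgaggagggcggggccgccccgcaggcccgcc

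Within the 300 bases around each start (250 before and 50 after), 6 of 31 members (19.4%) held either E2F motif, against 11.4% of all 27305 promoters: RRM1, TYMS and DCK among deoxynucleotide genes, and PRPS1, PRPS2 and ADSS among purine genes. The CCAAT box stood in 10 of 31 (32.3%), against 35.7% of all promoters. The E-box (CACGTG) stood in 6 of 31 (19.4%), against 7.43% of all promoters, and the shorter ACGTG, which lies inside it, in 11 of 31 (35.5%), against 21.6%. The cell-cycle homology region (TTTGAA) stood in 3 of 31 (9.68%), against 15.4%, and the amino acid response motif (TGATGNAA) in none, against 3.67%. The TK1 window held neither E2F motif and no CCAAT. These are matches of letters, not measured binding.

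Most of these enzymes had less RNA under sunitinib than under DMSO. Of the 33 members, all of which had enough counts to be tested, 21 were lower, 2 were higher (TK2 and NT5E) and 10 were not called at an adjusted p under 0.05 in edgeR's quasi-likelihood test. Over all 15232 genes tested, 40.2% were called, 19.9% lower and 20.3% higher. The median log2 fold change of the members was -0.49, beside 0.02 for all genes tested. Because the members were chosen with earlier results known, this contrast is a description only. Without sunitinib replicate 3, 25 members were lower and 2 higher with a median of -0.42, when 51.4% of all genes tested were called (26.3% lower and 25.1% higher). In bulk RNA, fewer cells of a kind and less RNA per cell cannot be told apart.

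Deoxynucleotide supply moved most. Summed over its 10 genes, it measured 558 ± 4.57 CPM in sunitinib samples, 1441 ± 22.7 CPM in compound 32 samples and 1012 ± 20.9 CPM in DMSO samples (SD, n = 3 each). In the comparison of sunitinib with DMSO, 8 of the 10 were lower and 1 higher, with a median log2 fold change of -0.67. Without sunitinib replicate 3 the counts were the same and the median was -0.71.

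**Figure D1:**
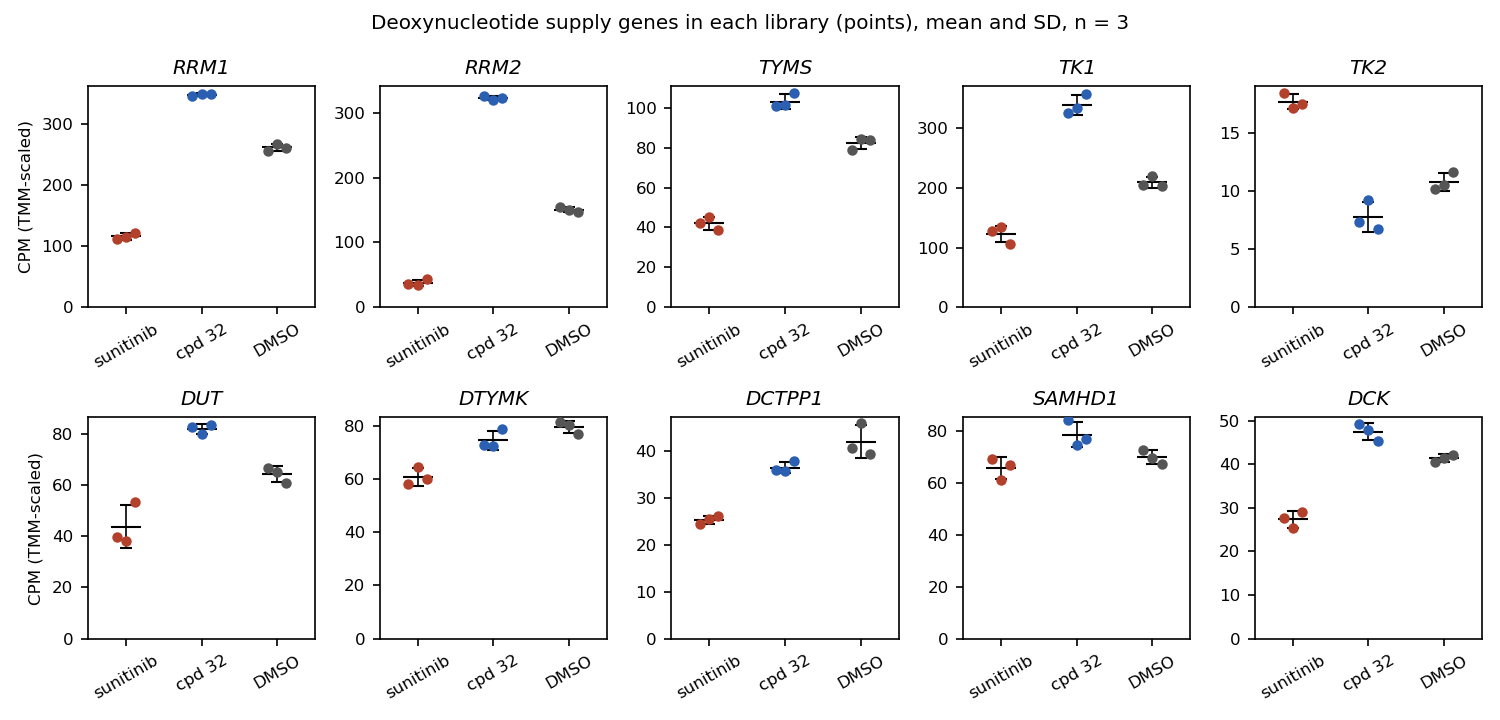
CPM of the 10 deoxynucleotide supply genes in each library (points), with the mean and SD of 3 samples per group (bars), for sunitinib, compound 32 (cpd 32) and DMSO; every vertical axis starts at 0. RRM2 lay at 34.0 to 42.8 CPM in sunitinib libraries, 321 to 327 CPM in compound 32 libraries and 147 to 155 CPM in DMSO libraries.

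RRM2, the small subunit of ribonucleotide reductase, measured 35.7, 34.0 and 42.8 CPM in sunitinib samples, against 155, 149.6 and 147 CPM in DMSO samples. The groups lay far apart, and RRM2 was 4.02-fold lower under sunitinib (log2 fold change -2.01 ± 0.08, SE, edgeR adjusted p = 3.33e-08). RRM1, the large subunit, measured 111, 114 and 121 CPM in sunitinib samples, against 256, 267 and 260.4 CPM in DMSO samples. Its groups did not overlap either, with a log2 fold change of -1.18 ± 0.06 (edgeR adjusted p = 1.32e-07). TYMS, thymidylate synthase, measured 42.1, 45.4 and 38.9 CPM in sunitinib samples, against 78.9, 84.5 and 84.2 CPM in DMSO samples. Every sunitinib sample lay below every DMSO sample, and the log2 fold change was -0.97 ± 0.07 (edgeR adjusted p = 2.01e-06). TYMS shares 39.1% of its exon bases with ENOSF1 on the opposite strand, and whether counting used strand is not given; ENOSF1 itself had a log2 fold change of 0.09 (edgeR adjusted p = 0.303). RRM2 shares 78.5% of its coding bases and 20.2% of its exon bases with another protein-coding gene on its own strand. That gene held 69 counts in all, against 24640 for RRM2. How reads of shared bases were counted is not given, so the level of RRM2 may be understated. The same limit holds for its values and ratios per length further on.

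The thymidine kinases went opposite ways. TK1, the cytosolic enzyme, measured 127, 134 and 107 CPM in sunitinib samples, against 205, 220.4 and 203 CPM in DMSO samples, and fell by 0.77 on the log2 scale (SE 0.09, edgeR adjusted p = 3.76e-05). TK2, the mitochondrial enzyme, measured 18.5, 17.2 and 17.6 CPM in sunitinib samples, against 10.2, 10.5 and 11.6 CPM in DMSO samples. It was the one deoxynucleotide supply gene that rose, by a log2 fold change of 0.72 ± 0.12 (edgeR adjusted p = 0.000677). Smaller falls were found for DCTPP1, which clears modified dCTP (log2 fold change -0.73), DCK, the deoxycytidine kinase (-0.60), DUT, which hydrolyses dUTP (-0.56), and DTYMK, the thymidylate kinase (-0.39). DUT had a log2 fold change of -0.73 without sunitinib replicate 3. SAMHD1, which breaks deoxynucleoside triphosphates down, had a log2 fold change of -0.09 and was not called (95% interval -0.25 to 0.07). DCTPP1 shares 42.1% of its exon bases with ZNF771 on the opposite strand, which was not called under sunitinib (log2 fold change -0.14). DCK shares 19.8% of its coding bases and 6.2% of its exon bases with MOB1B on the same strand. MOB1B was lower too (log2 fold change -0.29, edgeR adjusted p = 0.00996), so reads of the shared bases cannot be told apart.

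Pyrimidine synthesis measured 709 ± 11.6 CPM in sunitinib samples and 1027 ± 6.60 CPM in DMSO samples when its 8 genes were summed (SD, n = 3 each), and 6 of the 8 were lower. CTPS1, a CTP synthase, had the largest change. It measured 106, 112 and 125 CPM in sunitinib samples, against 208, 210.2 and 205 CPM in DMSO samples, without overlap, for a log2 fold change of -0.86 ± 0.07 (edgeR adjusted p = 3.36e-06). UMPS, which makes UMP, fell by 0.72 on the log2 scale, and CAD, which catalyses the first steps of the route, by 0.63. CAD rested in part on sunitinib replicate 3: it measured 214, 219 and 134 CPM in the sunitinib samples, against 285, 291 and 301 CPM in the DMSO samples. Without that replicate the log2 fold change of CAD was -0.44 ± 0.04 and still called. The uridine-cytidine kinases UCK2 and UCK1 fell by 0.42 and 0.26, and the UMP/CMP kinase CMPK1 by 0.31; the calls of UCK1 and CMPK1 did not hold under every alternative setting. DHODH, the mitochondrial enzyme of the route, had a log2 fold change of -0.10 (95% interval -0.33 to 0.12) and CTPS2, the second CTP synthase, of -0.13 (95% interval -0.40 to 0.15); neither was called.

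Purine synthesis measured 1385 ± 63.3 CPM in sunitinib samples and 1913 ± 31.3 CPM in DMSO samples over its 12 genes (SD, n = 3 each). In this branch 7 genes were lower and 5 were not called. PRPS1, which makes the ribose donor, measured 47.4, 50.9 and 51.5 CPM in sunitinib samples, against 87.0, 90.8 and 92.6 CPM in DMSO samples. The groups were separate and PRPS1 fell by 0.85 on the log2 scale (SE 0.06, edgeR adjusted p = 2.02e-06). Pseudogenes named for PRPS1 held 6.54% as many counts as the gene, so reads could be split between them. PPAT, which commits the donor to purines, measured 40.6, 36.5 and 41.2 CPM in sunitinib samples, against 66.3, 68.0 and 69.1 CPM in DMSO samples, and fell by 0.78 (SE 0.07, edgeR adjusted p = 5.81e-06). GMPS, which makes GMP, measured 135, 135 and 141 CPM in sunitinib samples, against 231, 241 and 229 CPM in DMSO samples, and fell by 0.77 (SE 0.06, edgeR adjusted p = 2.21e-06). No sunitinib sample reached a DMSO sample in either gene. Smaller falls were found for PFAS (0.71), PAICS (0.69), PRPS2 (0.69) and IMPDH1 (0.49), enzymes of the early and middle steps, of the ribose donor and of the GMP branch. Without sunitinib replicate 3, the log2 fold changes of PFAS and IMPDH1 were -0.53 and -0.36. Pseudogenes named for IMPDH1 held 2.7% as many counts as the gene.

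PPAT and PAICS lie head to head on chromosome 4, their GENCODE 29 gene bounds 125 bases apart, and fell by like amounts (0.78 and 0.69 on the log2 scale). The DNA between them is shown along the strand of PPAT (chr4:56435616-56435735, minus strand, RefSeq, GRCh38.p14), and it holds neither an E2F motif nor a CCAAT box.
PPAT: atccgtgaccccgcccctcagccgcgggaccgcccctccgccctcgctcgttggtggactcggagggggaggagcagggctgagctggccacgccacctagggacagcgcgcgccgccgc

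**Figure D2:**
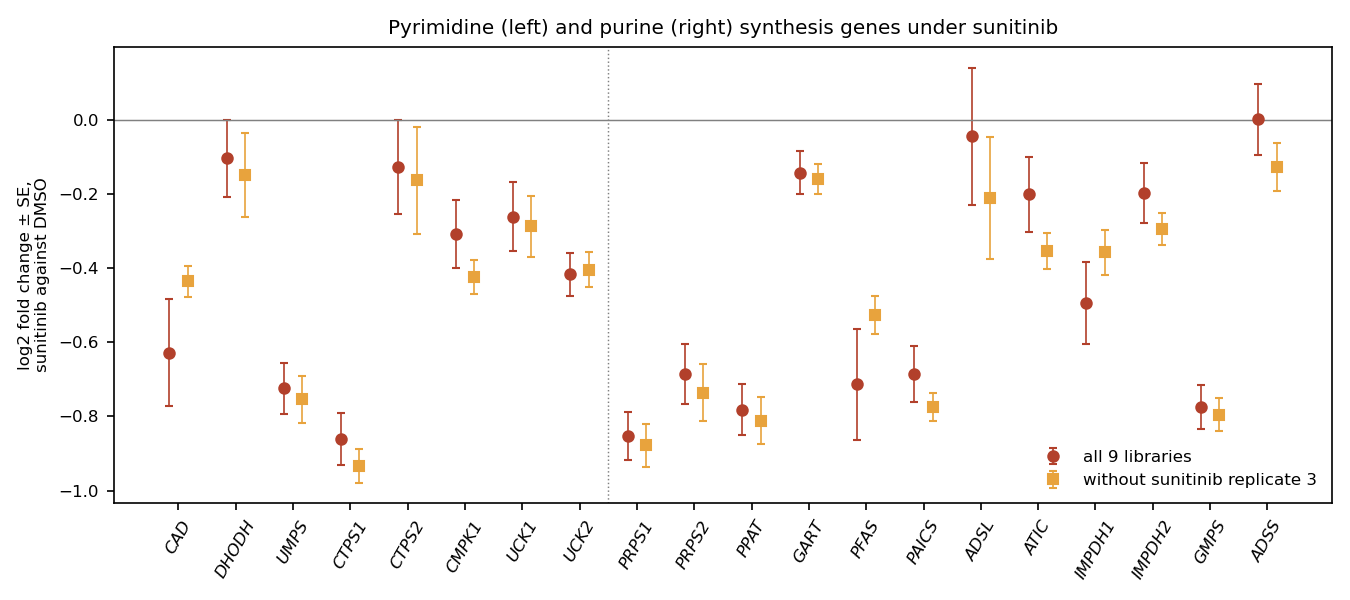
Log2 fold change ± SE of the 8 pyrimidine (left of the dotted line) and 12 purine (right) synthesis genes in sunitinib against DMSO, with all 9 libraries (circles) and without sunitinib replicate 3 (squares). CAD, PFAS and IMPDH1 lay closer to 0 without that replicate, while ATIC, IMPDH2 and ADSS lay lower.

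Sunitinib replicate 3 bore on the purine branch. It measured 84.3 CPM for PFAS, against 124 and 146 CPM in sunitinib replicates 1 and 2, and 160 CPM for ATIC, against 121 and 119 CPM. With all libraries 5 purine genes were not called: GART, which catalyses several middle steps (log2 fold change -0.14, edgeR adjusted p = 0.0683), ATIC, which makes IMP (-0.20, edgeR adjusted p = 0.134), IMPDH2, an IMP dehydrogenase (-0.20, edgeR adjusted p = 0.0699), ADSL (-0.04) and ADSS (0.00), which lead to AMP. Without that replicate 10 of the 12 were lower, GART (-0.16), ATIC (-0.35) and IMPDH2 (-0.30) among them. ADSL (-0.21) and ADSS (-0.13) remained uncalled. Most coding bases of ADSL (68.8%) and 18.9% of its exon bases also belong to another gene on the same strand. ADSL held 966 counts in all, and its level may be understated. GART shares 3.5% of its exon bases with SON on the opposite strand, which fell by 0.67.

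Of the last 3 members, NT5E, the surface enzyme that turns AMP into adenosine (CD73), rose under sunitinib. It measured 680.3, 658 and 758 CPM in sunitinib samples, against 533, 559 and 544 CPM in DMSO samples, without overlap, for a log2 fold change of 0.36 ± 0.07 (edgeR adjusted p = 0.00171). NME1 measured 74.7, 73.4 and 128 CPM in sunitinib samples, against 85.5, 98.2 and 83.2 CPM in DMSO samples, and replicate 3 lay above all of the others. Its log2 fold change was 0.05 and not called with all libraries (edgeR adjusted p = 0.856). Without that replicate it was -0.27 ± 0.06 and called lower. NME1 shares 75.6% of its coding bases and 18.6% of its exon bases with a read-through gene, NME1-NME2, that held 58 counts in all. Its level may therefore be understated too. GUK1 had a log2 fold change of 0.07 (95% interval -0.08 to 0.21) and was not called.

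Under compound 32 the changes against DMSO went both ways. In this comparison 8 of 33 members were higher and 3 lower, beside 22.3% of all genes tested that were called (12% higher and 10.3% lower), and the median log2 fold change of the members was 0.06. Of the 10 deoxynucleotide supply genes 5 were higher and 1 lower, of the 12 purine genes 2 were higher, and of the 8 pyrimidine genes 1 was lower. Summed pyrimidine synthesis measured 1018 ± 13.0 CPM in compound 32 samples and 1027 ± 6.60 CPM in DMSO samples, and purine synthesis 1902 ± 22.2 CPM in compound 32 samples and 1913 ± 31.3 CPM in DMSO samples (SD, n = 3 each).

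RRM2 measured 327, 321 and 323 CPM in compound 32 samples, against 155, 149.6 and 147 CPM in DMSO samples. The compound 32 samples were close to each other and all above DMSO, by 2.15-fold (log2 fold change 1.11 ± 0.08, edgeR adjusted p = 3.23e-06). TK1 measured 326, 334 and 359 CPM in compound 32 samples, against 205, 220.4 and 203 CPM in DMSO samples, and rose by 0.70 on the log2 scale (SE 0.09, edgeR adjusted p = 0.000196). RRM1 measured 345, 349 and 349 CPM in compound 32 samples, against 256, 267 and 260.4 CPM in DMSO samples, and rose by 0.41 (SE 0.06, edgeR adjusted p = 0.00059). In none of these genes did the groups overlap. TYMS measured 101, 101 and 108 CPM in compound 32 samples, against 78.9, 84.5 and 84.2 CPM in DMSO samples, for a rise of 0.32 (SE 0.07, edgeR adjusted p = 0.00742). DUT measured 82.9, 80.0 and 83.7 CPM in compound 32 samples, against 66.9, 65.4 and 61.0 CPM in DMSO samples, for a rise of 0.35 (SE 0.11, edgeR adjusted p = 0.0384). Again every compound 32 sample lay above every DMSO sample.

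TK2 was lower, at 7.31, 9.26 and 6.75 CPM in compound 32 samples, against 10.2, 10.5 and 11.6 CPM in DMSO samples (log2 fold change -0.47 ± 0.13, edgeR adjusted p = 0.022). DHODH, the enzyme of pyrimidine synthesis that sits in the inner mitochondrial membrane, measured 9.57, 10.3 and 9.80 CPM in compound 32 samples, against 13.6, 15.5 and 16.8 CPM in DMSO samples. It was the one pyrimidine gene called (log2 fold change -0.63 ± 0.11, edgeR adjusted p = 0.00172). GUK1, which phosphorylates GMP, measured 112, 112 and 126 CPM in compound 32 samples, against 85.7, 88.7 and 85.1 CPM in DMSO samples, and rose by 0.43 on the log2 scale (SE 0.07, edgeR adjusted p = 0.000891). The groups did not overlap in any of the 3. PRPS2 and PRPS1 rose by 0.30 and 0.20, and NT5E fell by 0.28. The 22 members that were not called had log2 fold changes between -0.52 (ADSL) and 0.21 (PAICS).

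**Figure D3:**
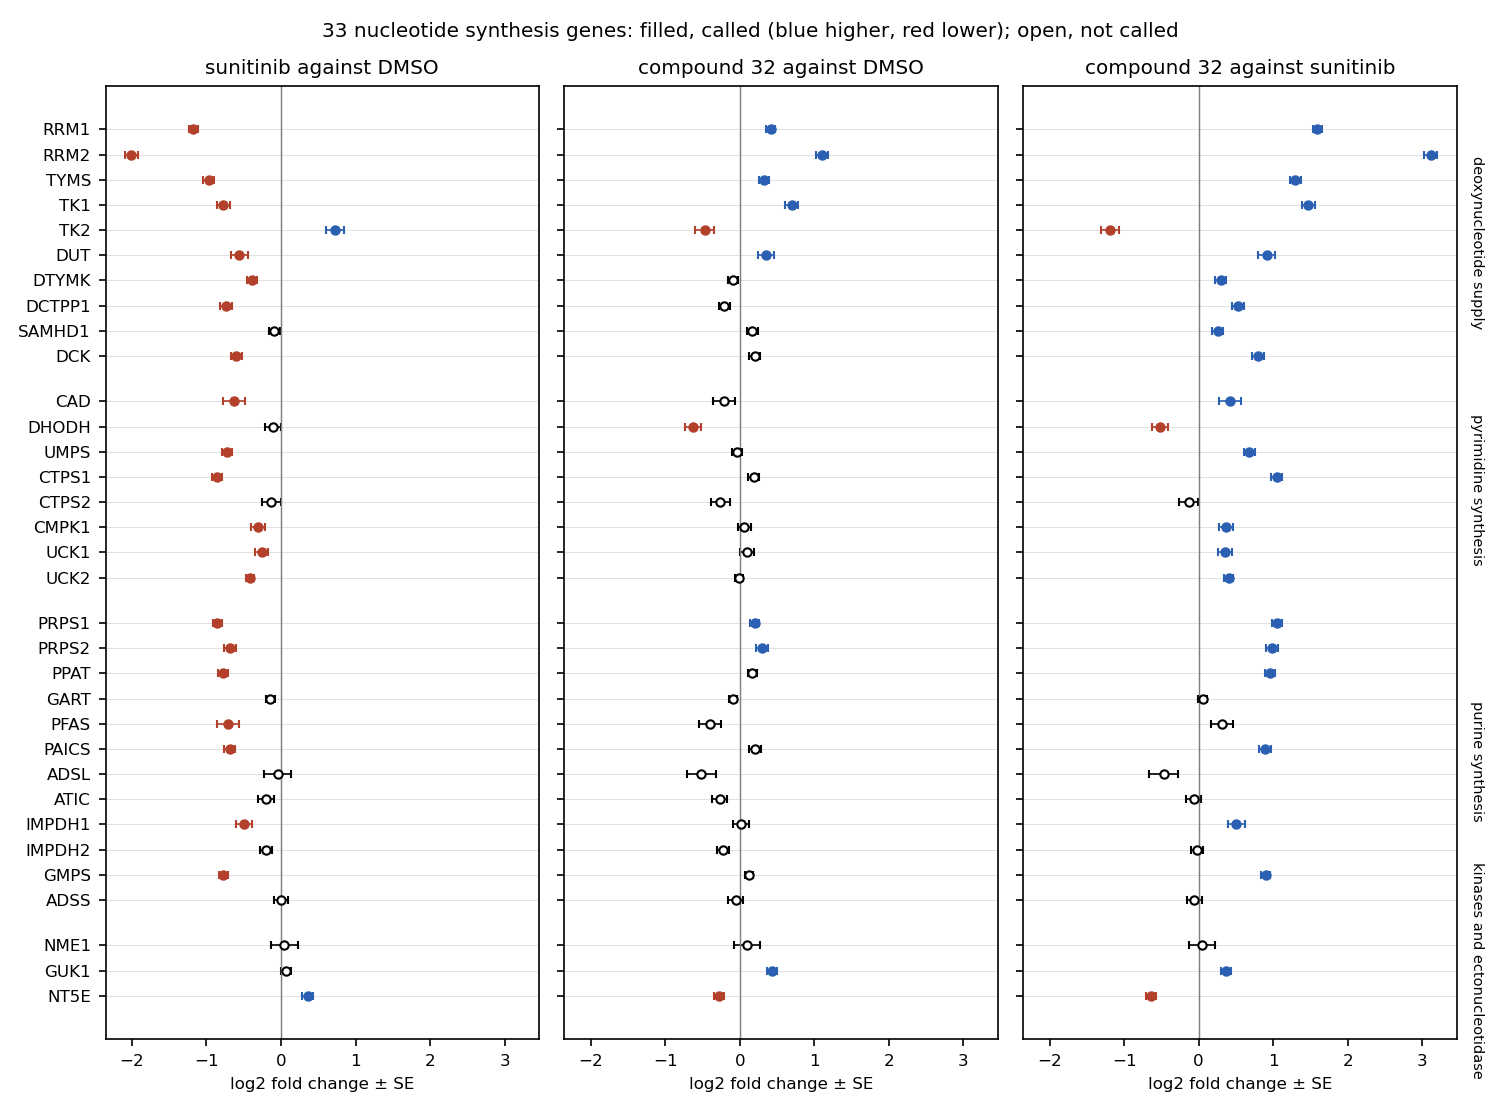
Log2 fold change ± SE of the 33 members, by role, in the comparisons of sunitinib with DMSO (left), compound 32 with DMSO (middle) and compound 32 with sunitinib (right); filled points passed the test in edgeR (blue higher, red lower) and open points did not. RRM2 lay furthest from 0 in each panel, at -2.01, 1.11 and 3.11.

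The count of calls in this comparison depended on which libraries were fitted together, and the cause was not tested. Without sunitinib replicate 3, 14 members were higher and 10 lower, when 42% of all genes tested were called (21.6% higher and 20.5% lower), although no compound 32 or DMSO sample had changed. Fits of only the 6 libraries compared gave 14 members higher and 10 lower in compound 32 against DMSO. Over all genes tested, 3258 were higher and 3114 lower there. In sunitinib against DMSO such fits gave 2 members higher and 20 lower, beside 2568 and 2454 of all genes tested. So the number of calls does not rank the treatments. The 13 members newly called without sunitinib replicate 3 included DCK (log2 fold change 0.20), PAICS (0.21) and CTPS1 (0.19) on the higher side. On the lower side they included PFAS (-0.39), ATIC (-0.27) and IMPDH2 (-0.22). Leaving out another library in turn gave 5 to 7 members higher and 1 to 4 lower. Over all genes tested, those fits called 1168 to 1791 higher and 968 to 1633 lower. RRM1, RRM2, TYMS, TK1, GUK1 and DHODH were called in every setting tried. DUT, TK2, NT5E, PRPS1 and PRPS2 lost their call when some of the DMSO or compound 32 libraries were left out.

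Set against sunitinib, compound 32 left 22 of 33 members higher and 3 lower (TK2, DHODH and NT5E). Over all genes tested 49.2% were called, 24.1% higher and 25.2% lower. The median log2 fold change of the members was 0.40, beside -0.03 for all genes tested. RRM2 was 8.64-fold higher in compound 32 samples than in sunitinib samples (log2 fold change 3.11 ± 0.09, edgeR adjusted p = 5.04e-10). RRM1 (log2 fold change 1.59 ± 0.06), TK1 (1.47 ± 0.09) and TYMS (1.29 ± 0.07) followed, with edgeR adjusted p of 5.95e-09, 1.51e-07 and 1.1e-07. All 10 deoxynucleotide supply genes were called, 9 of them higher. Besides those named, DUT (log2 fold change 0.91), DCK (0.80), DCTPP1 (0.53), DTYMK (0.29) and SAMHD1 (0.26) were higher. ENOSF1, which shares exon bases with TYMS, was lower in compound 32 samples than in sunitinib samples (log2 fold change -0.24, edgeR adjusted p = 0.00886).

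The remaining members of this comparison with the largest changes were PRPS1, CTPS1, PRPS2 and TK2. PRPS1 measured 104, 100.1 and 107 CPM in compound 32 samples, against 47.4, 50.9 and 51.5 CPM in sunitinib samples (log2 fold change 1.05 ± 0.06, edgeR adjusted p = 2.02e-07). CTPS1 measured 231, 235 and 243 CPM in compound 32 samples, against 106, 112 and 125 CPM in sunitinib samples (1.05 ± 0.07, edgeR adjusted p = 3.96e-07). PRPS2, the second enzyme that makes the ribose donor, measured 49.8, 52.6 and 48.3 CPM in compound 32 samples, against 25.7, 23.3 and 27.2 CPM in sunitinib samples (0.98 ± 0.08, edgeR adjusted p = 1.98e-06). Compound 32 samples were the higher ones throughout, with no overlap. TK2 ran the other way, with a log2 fold change of -1.19 ± 0.12 (edgeR adjusted p = 1.39e-05), as did NT5E (-0.64 ± 0.07, edgeR adjusted p = 1.8e-05) and DHODH (-0.52 ± 0.11, edgeR adjusted p = 0.00181).

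In the pyrimidine branch UMPS (log2 fold change 0.68), CAD (0.42), UCK2 (0.40), CMPK1 (0.37) and UCK1 (0.36) were higher beside CTPS1, and CTPS2 was not called (-0.13). GUK1 was higher as well (0.36). The calls of SAMHD1 and CAD did not hold in every setting tried. In the purine branch 6 of 12 genes were higher in compound 32 samples than in sunitinib samples and 6 were not called. PPAT (0.95), GMPS (0.90), PAICS (0.89) and IMPDH1 (0.51) joined PRPS1 and PRPS2 among the higher, on the log2 scale. GART (log2 fold change 0.05, 95% interval -0.07 to 0.18), IMPDH2 (-0.03, 95% interval -0.20 to 0.15) and ATIC (-0.07, 95% interval -0.29 to 0.15) were not called, nor were PFAS (0.32), ADSL (-0.47) and ADSS (-0.06). Without sunitinib replicate 3, 24 members were higher and 3 lower, PFAS and NME1 being the added ones, when 58.7% of all genes tested were called (29.7% higher and 29% lower). In that fit CAD had a log2 fold change of 0.23 and IMPDH1 of 0.37. The comparisons with DMSO share the DMSO samples, so only the direct comparison tests how the treatments differ.

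Some steps have alternative enzymes, and their ratio within a library does not depend on library size. The ratio was taken for 7 pairs in 3 comparisons, which gives 21 tests, and with 3 samples against 3 the exact two-sided permutation test cannot go below p = 0.1. For 4 pairs (RRM2 to RRM1, RRM2 to RRM2B, TK1 to TK2 and CTPS1 to CTPS2) the groups did not overlap in any comparison, each at that smallest exact p of 0.1 and at 0.14 after Benjamini-Hochberg adjustment over the 21. No share of all gene pairs that separate in this way is given here, so the separation is a description only. Per length, RRM2 stood to RRM2B, the small subunit that p53 induces, at 0.154 ± 0.0225 in sunitinib samples, 1.17 ± 0.0524 in compound 32 samples and 0.626 ± 0.0241 in DMSO samples (SD, n = 3 each). RRM2B itself had a log2 fold change of 0.02 in sunitinib against DMSO (edgeR adjusted p = 0.836) and 0.20 in compound 32 against DMSO (edgeR adjusted p = 0.0412). That call in compound 32 was lost without each of 7 of the 9 libraries.

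The ratio of TK1 to TK2 per length was 26.6 ± 3.29 in sunitinib samples, 171 ± 32.5 in compound 32 samples and 75.1 ± 7.11 in DMSO samples, and that of RRM2 to RRM1 was 0.254 ± 0.0215 in sunitinib samples, 0.731 ± 0.0122 in compound 32 samples and 0.452 ± 0.0188 in DMSO samples (SD, n = 3 each). CTPS1 stood to CTPS2 at 6.51 ± 0.483 in sunitinib samples, 14.8 ± 1.48 in compound 32 samples and 10.9 ± 1.04 in DMSO samples. The ratio of PRPS1 to PRPS2 overlapped in all 3 comparisons, at 2.07 ± 0.192, 2.17 ± 0.161 and 2.32 ± 0.154 in the sunitinib, compound 32 and DMSO samples. The ratio of IMPDH2 to IMPDH1 reached a log2 count ratio of 2.78 in sunitinib replicate 3, against 2.05 and 2.02 in sunitinib replicates 1 and 2 and 1.94 to 2.03 in DMSO samples. In compound 32 samples it was 1.80, 1.70 and 1.71, below every sunitinib and DMSO sample (exact permutation p = 0.1 in each comparison). The ratio of UCK2 to UCK1 did not overlap in sunitinib against DMSO (exact permutation p = 0.1) and overlapped in the comparisons that include compound 32.

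**Figure D4:**
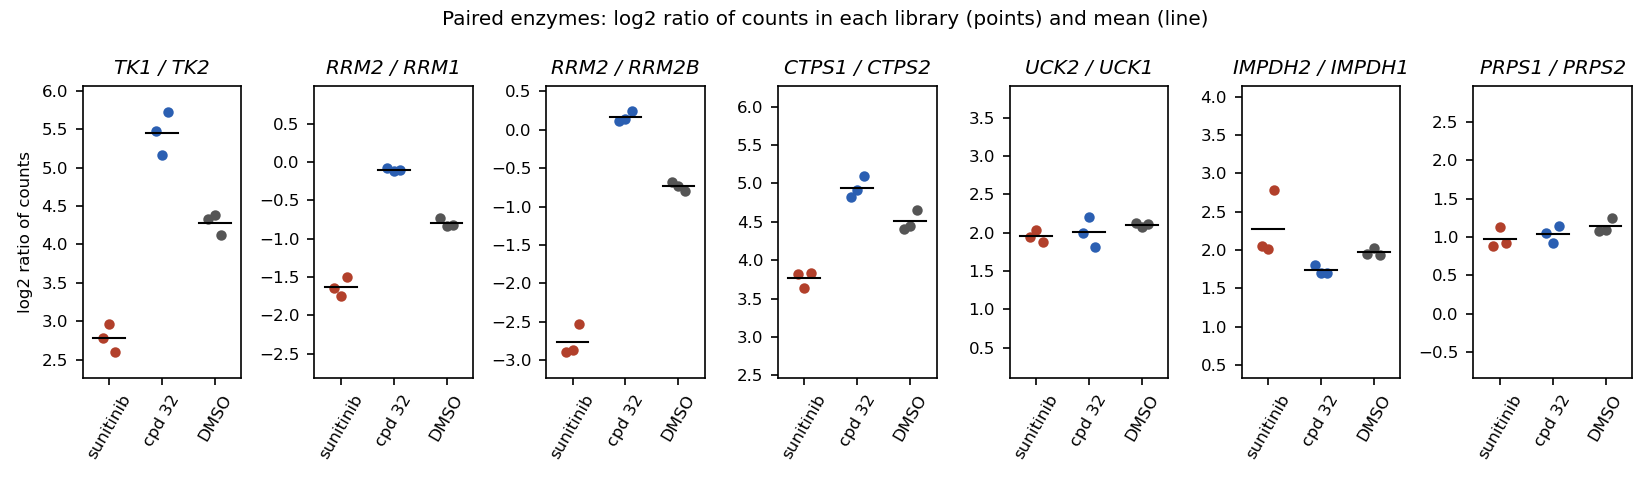
Log2 ratio of the counts of paired enzymes in each library (points) with the group mean (lines), for sunitinib, compound 32 (cpd 32) and DMSO; all panels span the same number of log2 units. In the 4 panels on the left the groups are separate. In the IMPDH2 to IMPDH1 panel 1 sunitinib library lies at 2.78, and the compound 32 libraries lie below all others.

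Per kilobase, the members differed widely in level. NT5E was the highest in sunitinib and DMSO samples, at 154 ± 11.6 and 120.3 ± 2.90 RPKM (CPM per kilobase of exons), and TK1 the highest in compound 32 samples, at 183 ± 9.15 RPKM (SD, n = 3 each). RRM2 measured 7.04 ± 0.878 RPKM in sunitinib samples, 60.8 ± 0.604 RPKM in compound 32 samples and 28.3 ± 0.714 RPKM in DMSO samples. Among the lowest were TK2, at 2.47, 1.08 and 1.503 RPKM in the sunitinib, compound 32 and DMSO samples, and CTPS2, at 1.53, 1.39 and 1.66 RPKM. The order of neighbours such as TK2 and CTPS2 in DMSO samples did not exceed their spread (SD 0.107 and 0.168 RPKM).

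The folate cycle carries the carbon units that TYMS, GART and ATIC use. Of 9 of its genes, all tested, 2 were higher and 4 lower under sunitinib, 1 higher and 3 lower under compound 32, both against DMSO, and 4 higher and 4 lower in compound 32 against sunitinib, beside 40.2%, 22.3% and 49.2% of all genes tested that were called in the 3 comparisons. Under sunitinib MTHFD1, the cytosolic enzyme, fell by 0.98 on the log2 scale and the folate carrier SLC19A1 by 1.15. Of the genes of the mitochondrial arm, SHMT2 and MTHFD2 were higher, MTHFD1L was not called (log2 fold change 0.09, edgeR adjusted p = 0.251) and the carrier SLC25A32, at 1.80 and 4.50 CPM in sunitinib and DMSO samples, was lower (-1.29 ± 0.37, edgeR adjusted p = 0.0158). SHMT2 measured 602, 580.5 and 641 CPM in sunitinib samples, against 329.6, 337 and 348 CPM in DMSO samples (log2 fold change 0.85 ± 0.06, edgeR adjusted p = 1.94e-06), and the groups lay apart. MTHFD2 rose by 0.64 (SE 0.07, edgeR adjusted p = 4.91e-05). Under compound 32 SHMT1 rose by 0.35, while SHMT2 fell by 0.27 and MTHFD1L by 0.43; MTHFD2 (0.15, edgeR adjusted p = 0.178) was not called. In compound 32 against sunitinib SHMT2 was lower (-1.11 on the log2 scale), MTHFD1 higher (1.02) and MTHFD2 lower (-0.49).

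**Figure D5:**
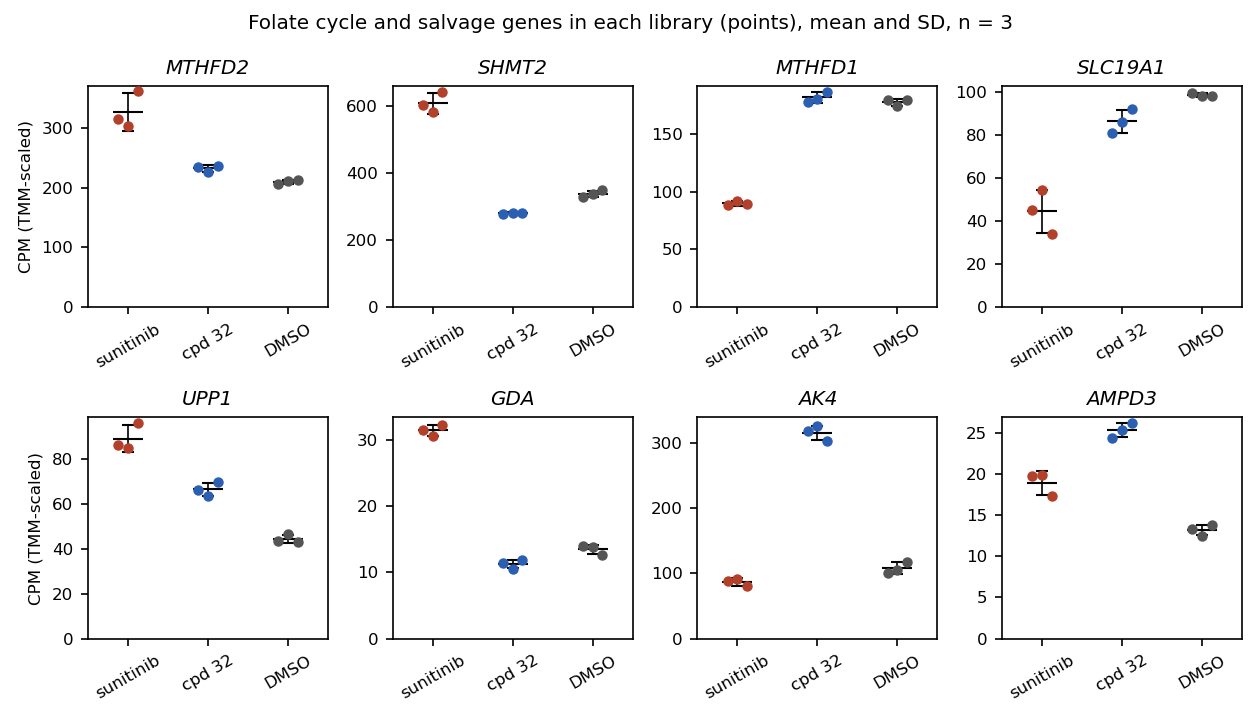
CPM of 4 folate cycle genes and 4 salvage or catabolic genes in each library (points), with the mean and SD of 3 samples per group (bars), for sunitinib, compound 32 (cpd 32) and DMSO; every vertical axis starts at 0. MTHFD1 lay at 88.1 to 91.8 CPM in sunitinib libraries, 178 to 187 CPM in compound 32 libraries and 174 to 179.7 CPM in DMSO libraries.

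Of 39 genes of salvage, catabolism and other nucleotide kinases 38 were tested. Under sunitinib 10 were higher and 10 lower (52.6% called, beside 40.2% of all genes tested), and GDA, guanine deaminase (log2 fold change 1.22), UPP1, uridine phosphorylase (1.00), and NT5C, a cytosolic nucleotidase (0.68), led those with at least 5 CPM. Under compound 32 8 were higher and 3 lower (28.9% called, beside 22.3% of all genes tested). AK4, a mitochondrial adenylate kinase, showed no overlap between groups and measured 318, 326 and 304 CPM in compound 32 samples, against 101, 105 and 118 CPM in DMSO samples (log2 fold change 1.55 ± 0.08, edgeR adjusted p = 2.41e-07). AMPD3, an AMP deaminase, rose by 0.94 and NME3, a nucleoside diphosphate kinase, fell by 0.69. In compound 32 against sunitinib 12 were higher and 13 lower (65.8% called, beside 49.2% of all genes tested), led by AK4 (log2 fold change 1.87), GDA (-1.48) and NME3 (-1.37).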

How the data were processed

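Polyadenylated RNA of 9 HEYA8 samples (TRIzol, oligo(dT) beads, random hexamers, per the labels' protocols) was sequenced, and the authors deposited raw counts of reads per gene for 58735 genes. The submitters' processing notes name fastp, HISAT2 2.0.5, featureCounts, DESeq2 and edgeR without their roles, and the builds hg38 and mm10. Settings for strand and multi-mapped reads: not given in the sources used here. All 58735 identifiers and coordinates were those of GENCODE 29, whose exon lengths matched the deposited gene lengths of all 33 members.

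From the counts, edgeR 4.0.16 (R 4.3.3) with TMM scaling and filterByExpr kept 15232 genes and fitted the 9 libraries as 3 group means. Its quasi-likelihood test was adjusted by Benjamini-Hochberg over all 15232 genes, with calls at an adjusted p under 0.05; SE is the log2 fold change over the root of F. CPM are TMM-scaled. Totals of 15498101 to 18006171 counts set the precision. Pair ratios (0.5 added to each count) were compared by exact permutation tests. The scripts were tested on simulated data. DESeq2 1.42.0, limma 3.58.1 (voom), other scalings and filters, a replicate block, the 6 libraries compared alone, an adjusted p under 0.01 and leaving out each library were tried. Members and lists were chosen with earlier results of these data known. By rule, the 8 called members with the largest changes per comparison carry every sample's value, and other members and context genes follow by role: per list and comparison, up to 3 called genes with the largest changes and at least 5 CPM, plus RRM2B, MTHFD2 and SHMT2; some folate cycle genes are not reported here. Other genes named beside these were chosen after their values were seen. Same-numbered samples did not deviate together (correlations -0.08 to 0.06), so numbers were not used as pairs.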

Additional observations from a re-analysis of the deposited data

How the results depend on the processing

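Calls of 21 of 23 members in sunitinib against DMSO, 6 of 11 in compound 32 against DMSO and 23 of 25 in compound 32 against sunitinib held in every setting. The median log2 fold change of members in sunitinib against DMSO was -0.41 with upper-quartile factors and -0.43 with library totals, and in compound 32 against sunitinib 0.32 and 0.34; upper-quartile factors moved the median of all genes to 0.10 in sunitinib against DMSO (3952 higher and 2316 lower, against 3090 and 3036) and to -0.12 in compound 32 against sunitinib (3008 higher and 4712 lower, against 3664 and 3834). In compound 32 against DMSO, library totals gave 5 members lower and no filter 7 lower, beside 1561 and 1722 of all genes. The 6 libraries alone gave 14 members higher and 10 lower, beside 3258 and 3114 of all genes. An adjusted p under 0.01 gave 5 members higher and 1 lower, and all genes were not counted at that threshold. Leaving out each library gave 5 to 14 higher and 1 to 10 lower there, with a median from -0.00727 (without compound 32 replicate 3) to 0.0708; medians ran from -0.52 to -0.42 in sunitinib against DMSO and from 0.39 to 0.50 in compound 32 against sunitinib. The log2 ratio of UCK2 to UCK1 in compound 32 against sunitinib ran from -0.0444 to 0.148. Fits without sunitinib replicate 3, and fits of the 6 libraries alone in compound 32 against DMSO, leave that library out of the spread. In comparisons that include sunitinib, fits of the 6 libraries alone keep that library. The cause of the changes between settings was not tested. With the replicate block, 2 members were higher and 21 lower in sunitinib against DMSO, beside 2846 and 2912 of all genes. In compound 32 against DMSO it gave 6 and 4 members, beside 1559 and 1319 of all genes. In compound 32 against sunitinib it gave 22 and 4 members, beside 3535 and 3639 of all genes. The replicate numbers were not used as pairs because same-numbered samples did not deviate together, though 3 samples per group cannot exclude pairing.

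Fold changes near 0, none called with all libraries, turned sign. In sunitinib against DMSO, ADSS reached -0.00679 with RLE factors, -0.00682 with DESeq2, -0.0356 without a filter, -0.0108 with limma voom and -0.00446 with the block; ADSL reached 0.0384 and 0.00939 with upper-quartile factors and library totals, NME1 -0.00326 with limma voom, and RRM2B -0.0172 without a filter. In compound 32 against sunitinib, GART reached -0.0333 and -0.0091 and NME1 -0.0402 and -0.00605 with upper-quartile factors and library totals, and IMPDH2 0.0037 without a filter. When a library was left out, values ran in sunitinib against DMSO from -0.128 to 0.0601 for ADSS, -0.267 to 0.18 for NME1, -0.211 to 0.0512 for ADSL and -0.0212 to 0.0362 for RRM2B, and in compound 32 against DMSO from -0.0217 to 0.0334 for IMPDH1, -0.0338 to 0.00236 for UCK2 and -0.00727 to 0.18 for UCK1. In compound 32 against sunitinib they ran from -0.0901 to 0.362 for NME1, -0.141 to 0.0875 for ATIC, -0.0803 to 0.0734 for IMPDH2 and -0.121 to 0.0729 for ADSS. Depth limits ADSL, CTPS2, TK2 and DHODH, which held 966 to 1921 counts over the 9 libraries.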

Other observations

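Nucleosides enter cells through the SLC29 and SLC28 carriers. Of 6 such genes 4 were tested, and SLC28A1 had no count in any library. SLC29A1, the main equilibrative nucleoside transporter, measured 94.0, 93.1 and 84.9 CPM in sunitinib samples, 153, 145 and 159.5 CPM in compound 32 samples, and 121, 141 and 133 CPM in DMSO samples. It was lower in sunitinib against DMSO (log2 fold change -0.54 ± 0.08, edgeR adjusted p = 0.000195) and higher in compound 32 against sunitinib (0.75 ± 0.08, edgeR adjusted p = 1.01e-05). SLC29A2 was higher in sunitinib against DMSO (0.57 ± 0.17, edgeR adjusted p = 0.0211) and lower in compound 32 against sunitinib (-0.49 ± 0.17, edgeR adjusted p = 0.0347). SLC29A3, a carrier of lysosomal and mitochondrial membranes with group means of 5.21, 1.55 and 1.60 CPM in the sunitinib, compound 32 and DMSO samples, was higher in sunitinib against DMSO as well (1.71 ± 0.26, edgeR adjusted p = 0.000314). In compound 32 against DMSO, SLC29A1 had a log2 fold change of 0.21 and was not called (edgeR adjusted p = 0.0639).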
